A study of Rattus norvegicus with 9 samples.

Results

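Cyclins, cyclin-dependent kinases, their inhibitors and the genes that copy DNA and split the cell were followed in ischaemic rat kidneys. The members were chosen by gene name alone. They are the cyclins A, B, D, E and G, the kinases named Cdk with a number, the genes whose name starts with Cdkn, the numbered Mcm genes, and Mki67, Top2a, Pcna, Aurka, Aurkb, Plk1 and Bub1. This gave 55 genes of the 26115 gene names on the array, carried by 73 probes. Of these, 46 genes with 58 probes were bright enough to be tested. The other 9 genes (Aurkb, Ccna1, Ccnb1ip1, Ccnb3, Ccne2, Cdkn2a, Cdkn2b, Cdkn3 and Mcm10) did not pass the filter on dim probes. Ccnb1ip1, Mcm3ap, Cdkn2aip and Cdkn2aipnl share the start of a name with the family but are not cyclins, helicases or inhibitors themselves.

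A cell divides in an ordered cycle that is driven by kinases. Each cyclin-dependent kinase needs a cyclin partner, and inhibitors of the Cip/Kip and INK4 families hold the kinases back. Once D and E cyclins have released E2F transcription factors from the RB proteins, the Mcm helicase opens DNA for copying, and cyclins A and B with Cdk1 then carry the cell into mitosis. Several kinases of the family do not drive the cycle, and act on RNA polymerase II or in other processes. Most tubular cells of the adult kidney rest outside the cycle, and ischaemia is known to bring surviving tubular cells back into it and to raise Cdkn1a, the p21 inhibitor.

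Each array measured total RNA from renal tissue of a Fisher F344 rat, taken as a model of donation after circulatory death. All kidneys had 20 min. of warm ischaemia. The 5 NP kidneys were not perfused. The 4 MSC kidneys were then perfused for 4 hrs at 4°C with Belzer solution (BS) that carried 3000000 mesenchymal stromal cells (MSC) from the bone marrow of Sprague Dawley rats with an EGFP transgene. The age of the rats is not given in the sources used here. The titles and descriptions of the NP samples name perfusion with BS, but their treatment field and the paper say not perfused, and they are called NP here. No kidney perfused with BS alone was on these arrays, so that perfusion and MSC cannot be told apart. RNA was taken from whole tissue, in which fewer cells of a type and less RNA per cell cannot be told apart.

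All values are log2 intensities after cyclic loess normalization, and a difference of 1 is a 2-fold change. Differences are given as MSC minus NP with the standard error (SE) of the limma fit over all 13837 genes. The adjusted p is the false discovery rate (FDR) of Benjamini and Hochberg over those genes, and the exact p is a two-sided permutation test over the 126 splits of the 9 arrays, which cannot go below 0.00794. Between 65.6% and 74.3% of the gene spots were well above background on an array, and 0 were saturated. The arrays lay on 2 slides, with NP replicates 1, 2 and 3 and MSC replicates 1 and 2 on slide 1 and the others on slide 2. All 11 listed markers of kidney tubule and podocyte could be tested, with a median difference of 0.15 that was 0.026 without MSC replicate 4 and 0.043 without NP replicate 1 or with arrays scaled to their median. The marker lists of other cells moved with the groups to different degrees. Of the 10 mesenchymal stromal markers tested, 8 were higher in MSC in sign, with Col1a1 at 1.06 (limma adjusted p = 0.333), and the mean of the list, each gene centred on its 9 arrays, ran from -0.66 to 0.54 in NP and from -0.17 to 0.37 in MSC. Thy1, Itga5 and Postn of that list did not pass the filter. The corresponding ranges were -0.37 to 0.27 in NP and -0.07 to 0.20 in MSC for leukocyte markers, -0.93 to -0.02 and -0.86 to 1.75 for fat, and 0.11 to 1.00 and -2.56 to 0.51 for red cell genes. At an unadjusted limma p under 0.05, 4 of 5 red cell genes were lower in MSC, 3 of 11 tubule and podocyte markers, 2 of 5 fat markers and 1 of 10 mesenchymal stromal markers were higher, and 0 of 10 leukocyte markers passed, beside 6.57% of all genes higher and 5.1% lower. Of 7 injured tubule markers tested, 5 were higher in sign with a median of 0.30, 2 passed that limit and lay above every NP array in all MSC arrays, and 4 passed it with slide as a block. These counts moved with single arrays. Only 1 red cell gene passed without NP replicate 1 or 4 or MSC replicate 3 and 2 without NP replicate 5 or MSC replicate 1, 0 passed within slide 1, and 1 passed with the brightest probe. For the mesenchymal markers 4 passed without NP replicate 2, 3 without MSC replicate 2, 0 within slide 1 and 6 within slide 2. For fat 4 of 5 passed without MSC replicate 1, and the median was -0.13 within slide 1, with 2 higher and 3 lower, and 2.70 within slide 2, where all 5 passed. The part of these cells in the results that follow was not tested.

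No member passed an FDR of 0.05, and neither did any other gene together with a fold change over 1.5 (0% called). At these limits the paper reports Tmem52b and Calb1, which are not members, as higher in MSC. Its filter on dim probes can be read in several ways, and why the calls differ was not tested. The smallest adjusted p among the members was 0.333, for Cdk19. At an unadjusted limma p under 0.05, called the unadjusted limit from here on, 2 members were higher in MSC (Bub1 and Top2a), where 6.57% of all genes were, and 4 were lower (Cdk19, Cdkn2d, Cdk12 and Cdk16), where 5.1% of all genes were. These 6 are 13% of the 46 members, beside 11.7% of all genes tested. With slide as a block the counts were 2 higher and 3 lower, within slide 1 they were 0 and 2, and within slide 2 they were 2 and 3. Leaving out single arrays moved them between 0 and 4 higher and between 1 and 9 lower, with 9 lower without NP replicate 1. The MSC arrays lay below every NP array for Cdk19 and Cdkn2d, as for 2.12% of all genes, and above every NP array for 0 members, beside 3.17% of all genes. Groups without overlap in either direction were thus 2 of 46 members, and made up 5.28% of all genes. The median difference of the members was -0.03, against -0.01 over all genes, and single members ran from -0.76 (Cdk12) to 0.51 (Mcm4). The kept Cdk12 probe lay under the filter limit on most MSC arrays and was kept mainly through NP arrays. In sign, 21 members were higher and 25 lower in MSC, and 48.5% of all genes were higher.

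**Figure D1:**
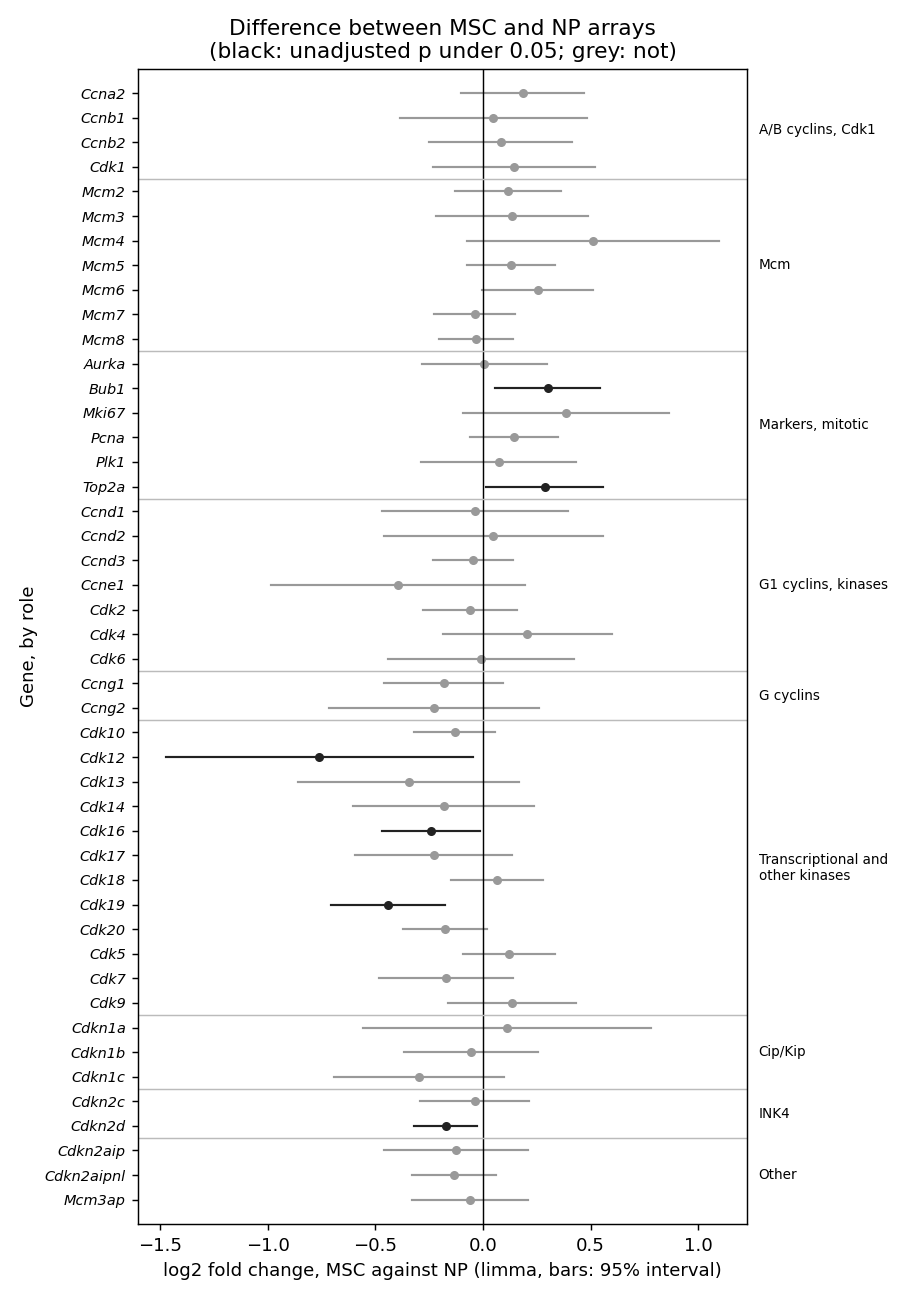
Log2 fold change of each of the 46 members, MSC minus NP, by role. Points are limma estimates, bars are 95% intervals, and black marks an unadjusted p under 0.05. The 6 black intervals leave out 0, with Bub1 and Top2a on the right and Cdk12, Cdk16, Cdk19 and Cdkn2d on the left.

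The roles differed in sign. All 6 tested proliferation markers and mitotic kinases and all 4 tested genes of the A and B cyclins with Cdk1 were higher in MSC in sign, with medians of 0.22 and 0.11. Of the 7 tested Mcm genes, 5 were higher and 2 lower, with a median of 0.13. Of the 12 transcriptional and other kinases, 9 were lower and 3 higher, with a median of -0.18. These 4 medians kept their sign under all 28 alternatives tried, but their size rested on single arrays. For the A and B cyclins with Cdk1 the median was 0.019 without NP replicate 4, with 2 higher and 2 lower, 0.040 without MSC replicate 1, 0.042 within slide 1 and 0.21 within slide 2 or without NP replicate 3. For the Mcm genes it was 0.056 without NP replicate 2, 0.066 without MSC replicate 1 and 0.20 without MSC replicate 2, and for the kinases it was -0.11 without NP replicate 2 and -0.28 without NP replicate 1. For the markers it was 0.14 without MSC replicate 1, and 4 of the 6 were higher within slide 1. Intervals of most single members covered 0, and no difference between roles was tested.

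**Figure D2:**
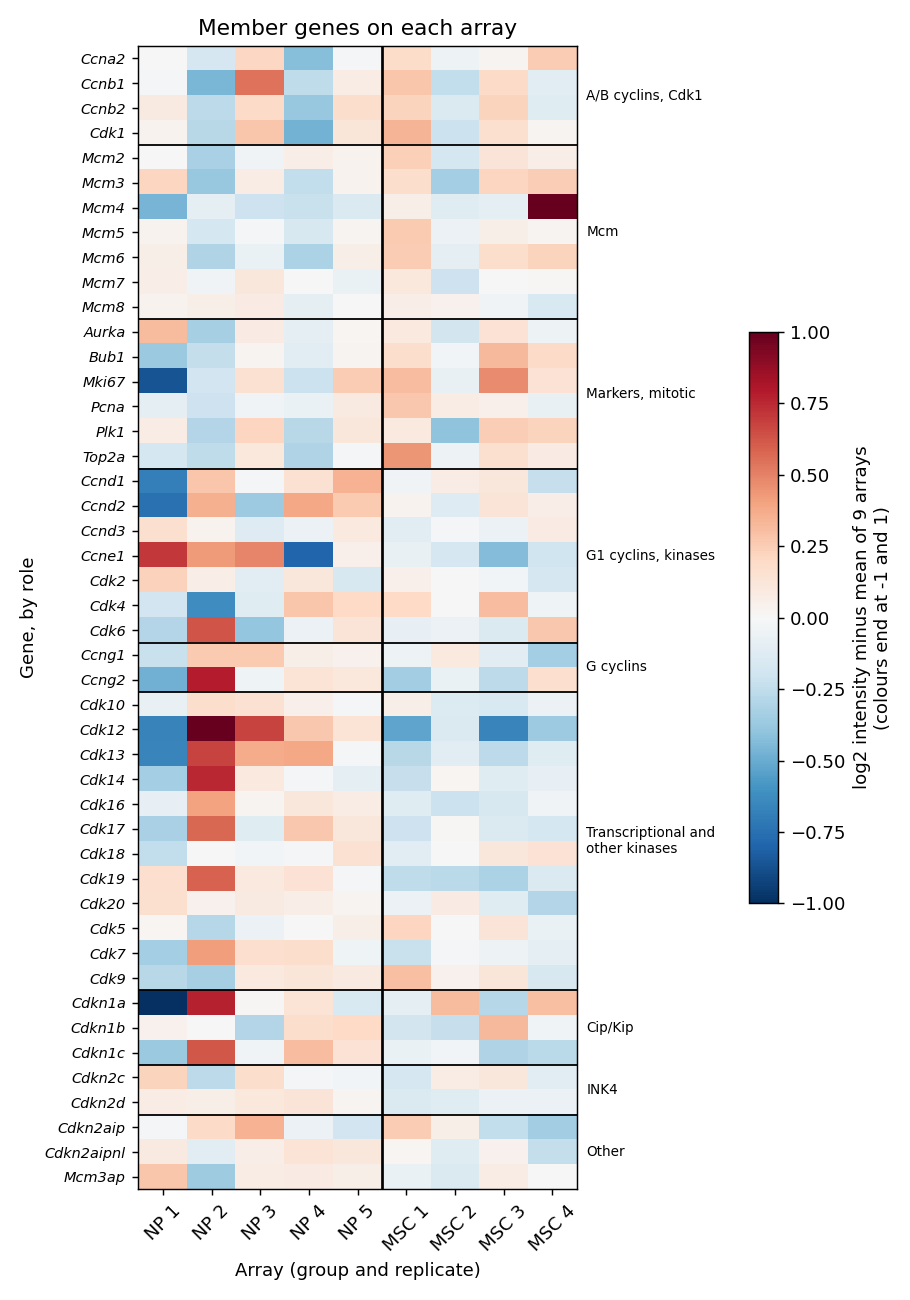
Heat map of the 46 members (rows, by role) on the 9 arrays (columns). Colour is log2 intensity minus the gene's mean over the 9 arrays, and colours end at -1 and 1. NP replicate 1 is blue and NP replicate 2 red for Cdk12, Cdk13, Cdk14, Cdkn1a and Cdkn1c, and Mcm4 stands out on MSC replicate 4.

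The replication and mitosis genes come first. The promoters of 4 of them are printed here because cell cycle genes are known to be timed through E2F motifs, through the cell cycle genes homology region (CHR) and through CCAAT boxes. The sequences are from RefSeq on GRCr8 and give the 150 bases before the start of transcription. Capitals mark the motifs searched on both strands, which are TTTCGCGC, TTTGGCGC or TTTCCCGC for E2F, TTTGAA or TTCGAA for CHR, and CCAAT, so that a box read on the other strand appears as ATTGG or TTCAAA.
Mcm6 (chr13:42404353-42404502, minus strand): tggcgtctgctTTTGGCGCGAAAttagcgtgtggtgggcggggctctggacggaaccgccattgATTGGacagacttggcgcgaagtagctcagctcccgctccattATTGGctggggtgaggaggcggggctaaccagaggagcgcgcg
Cdk1 (chr20:19265143-19265292, plus strand): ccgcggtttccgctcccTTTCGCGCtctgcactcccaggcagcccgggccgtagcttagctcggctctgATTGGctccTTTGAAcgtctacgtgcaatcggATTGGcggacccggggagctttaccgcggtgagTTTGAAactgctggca
Top2a (chr10:84473094-84473243, minus strand): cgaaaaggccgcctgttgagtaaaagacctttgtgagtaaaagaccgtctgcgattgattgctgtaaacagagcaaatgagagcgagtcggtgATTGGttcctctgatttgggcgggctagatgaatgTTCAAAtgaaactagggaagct
Mki67 (chr1:199952594-199952743, minus strand): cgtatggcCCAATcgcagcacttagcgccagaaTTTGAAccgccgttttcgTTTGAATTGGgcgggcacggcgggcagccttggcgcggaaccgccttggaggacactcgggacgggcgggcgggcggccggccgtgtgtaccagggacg
In Mcm6 an E2F motif on the plus strand overlaps another on the minus strand, and in Mki67 a CHR and a CCAAT box on the minus strand share a base.

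Promoters of 300 bases, with 250 before and 50 after the start, were found for 43 of the 55 members, and alternative starts brought them to 48. E2F motifs were in 14.6% of these 48 and in 1.7% of 33469 rat promoters of the same length. They were in Cdk1, Mcm2, Mcm3, Mcm5, Mcm6, Mcm7 and Mcm8. Over the 18 promoters of the A and B cyclins, Cdk1, Mcm genes, markers and mitotic kinases, 38.9% held an E2F motif, 38.9% a CHR, 72.2% a CCAAT box and 33.3% both of the last. Over all promoters a CHR was in 19.7%, a CCAAT box in 37.5% and both in 8%. The promoter of Bub1 held none of these letters.

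Bub1 is a kinase of the spindle checkpoint, which holds mitosis until chromosomes are attached. Its values were 8.81, 8.95, 9.21, 9.07 and 9.22 on NP replicates 1 to 5 and 9.36, 9.16, 9.51 and 9.38 on MSC replicates 1 to 4. MSC replicates 1, 3 and 4 lay above every NP array, and MSC replicate 2 lay within the NP range. The difference was 0.30 (SE 0.11), or 1.23-fold (unadjusted limma p = 0.021, adjusted p = 0.367, exact p = 0.048). It was 0.27 on slide 1 and 0.30 on slide 2, and 0.19 without NP replicates 1 and 2, which did not pass the unadjusted limit, as was the case without MSC replicate 3 (0.25). It was 0.57 with the background-subtracted signal scaled to the 75th percentile, and still passed. The probe lies on chromosome 3 from 115324612 to 115324671 (minus strand) of RGSC 3.4 (rn4), the build of all probe positions given here. A second Bub1 probe was too dim to be kept. Whether a probe lies in coding sequence or a UTR was not analysed here.

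Top2a, the topoisomerase that untangles copied chromosomes, read 9.04, 8.96, 9.32, 8.92 and 9.21 in NP and 9.66, 9.16, 9.38 and 9.30 in MSC, in replicate order. MSC replicates 1 and 3 were above every NP array, and the others fell within the NP range. The difference was 0.29 (SE 0.12), or 1.22-fold (unadjusted limma p = 0.041, adjusted p = 0.412, exact p = 0.063). Without MSC replicate 1 it was 0.19, and it passed the unadjusted limit in 3 of the 9 fits that left out 1 array, those without NP replicates 3 and 5 and MSC replicate 2. With the background-subtracted signal scaled to the 75th percentile in place of cyclic loess it was 0.13. The probe lies on chromosome 10 from 87771459 to 87771518 (minus strand). A second Top2a probe was too dim to be kept.

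Mki67, the most used marker of cycling cells, was read by 3 probes. On the probe kept for the gene (chromosome 1, 195310145 to 195310204, minus strand), the values were 9.25, 9.92, 10.27, 9.89 and 10.37 in NP and 10.42, 10.04, 10.58 and 10.26 in MSC. NP replicate 1 was far below all others, and MSC replicates 1 and 3 were above every NP array. The difference of 0.39 (SE 0.21) did not pass the unadjusted limit (limma p = 0.102, adjusted p = 0.507, exact p = 0.151), and without NP replicate 1 it was 0.21. Without NP replicate 5 it was 0.49 and passed that limit, and it was 0.62 with the background-subtracted signal scaled to the 75th percentile and 0.22 with array weights, without passing. The other probes differed by 0.32 and 0.11 in the same direction.

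Pcna, the clamp that holds DNA polymerase on its template, read 13.21, 13.10, 13.27, 13.24 and 13.39 in NP and 13.57, 13.38, 13.35 and 13.23 in MSC. MSC replicate 1 alone was above every NP array. The difference was 0.14 (SE 0.09, limma p = 0.150, exact p = 0.135), with 0.29 on slide 1 and -0.02 on slide 2, and was 0.082 without MSC replicate 1. Plk1 and Aurka, kinases of the mitotic spindle, differed by 0.07 and 0.01.

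**Figure D3:**
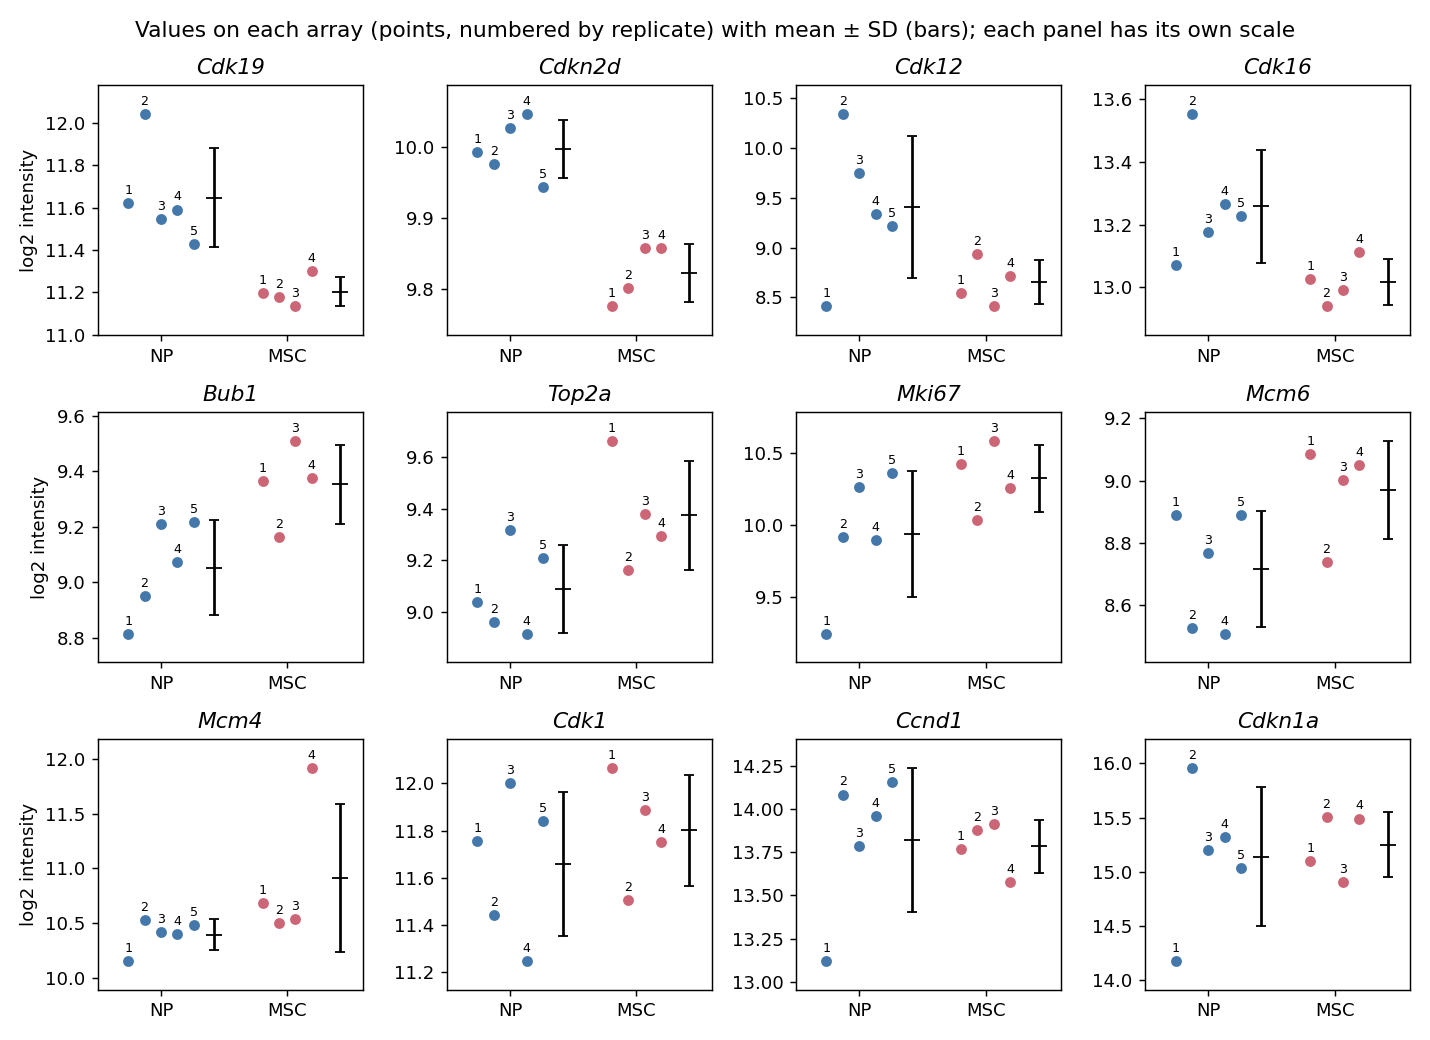
Log2 intensity of 12 members on each array. Points are arrays numbered by replicate, bars give the mean and SD of the 5 NP and 4 MSC arrays, and each panel has its own scale. Cdk19 and Cdkn2d show no overlap of the groups, Bub1 has 1 MSC array within the NP range, and the Mcm4 mean in MSC rests on replicate 4 at 11.91.

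The Mcm2 to Mcm7 proteins form the ring that unwinds DNA at the fork, and Mcm8 acts in the repair of breaks. Mcm2 read 10.65, 10.32, 10.61, 10.71 and 10.68 in NP and 10.88, 10.47, 10.78 and 10.71 in MSC. MSC replicates 1, 3 and, barely, 4 were above every NP array, MSC replicate 2 lay within the NP range, and NP replicate 2 was apart at the low end. The difference was 0.12 (SE 0.11, limma p = 0.322, exact p = 0.349). It was 0.048 without NP replicate 2, 0.059 without MSC replicate 1 and 0.20 without MSC replicate 2. With the background-subtracted signal scaled to the 75th percentile, 2 choices changed together, it was 0.55 and passed the unadjusted limit.

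Mcm6 and Mcm4 are described because their values were seen to be the highest of the family in the contrast. Mcm6 read 8.89, 8.53, 8.77, 8.51 and 8.89 in NP and 9.09, 8.74, 9.0 and 9.05 in MSC, close to the filter limit of 8.75 to 8.87. All MSC arrays but replicate 2 were above every NP array. The difference was 0.25 (SE 0.12, limma p = 0.054, adjusted p = 0.432, exact p = 0.079). It passed the unadjusted limit without NP replicate 1 or 5 or MSC replicate 2 (0.30, 0.30 and 0.33). With the background-subtracted signal scaled to the 75th percentile it was 0.60.

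Mcm4 read 10.16, 10.53, 10.42, 10.41 and 10.48 in NP and 10.68, 10.51, 10.54 and 11.91 in MSC. The mean difference was 0.51 (SE 0.26, limma p = 0.081, adjusted p = 0.480, exact p = 0.016), and without MSC replicate 4 it was 0.18. It passed the unadjusted limit without MSC replicate 2 (0.65), and was 0.22 on slide 1 and 0.78 on slide 2. This probe has a single spot on the array, and the other Mcm4 probe, which was too dim to be kept, read 8.26 on MSC replicate 4 beside 8.29 to 8.60 on the other MSC arrays. Mcm3, Mcm5, Mcm7 and Mcm8 differed by 0.14, 0.13, -0.04 and -0.03.

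Cdk1, the kinase of mitotic entry, read 11.76, 11.44, 12.00, 11.25 and 11.84 in NP and 12.06, 11.51, 11.89 and 11.75 in MSC. Only MSC replicate 1 lay above the NP range. The difference was 0.14 (SE 0.17, limma p = 0.413, exact p = 0.444). Without single arrays it ran from 0.041 (without NP replicate 4) to 0.24 (without MSC replicate 2), with 0.056 without MSC replicate 1 and 0.23 without NP replicate 3. It was 0.05 on slide 1 and 0.27 on slide 2. Its partner Ccnb1 (cyclin B1) read 9.29, 8.85, 9.86, 9.06 and 9.38 in NP and 9.59, 9.06, 9.50 and 9.19 in MSC, so that all MSC arrays lay within the NP range. The difference was 0.05 (SE 0.20, limma p = 0.815, exact p = 0.841), and it was -0.10 without NP replicates 1 and 2. Ccna2 (cyclin A2), which acts in S phase and before mitosis, read 9.49, 9.32, 9.70, 9.06 and 9.48 in NP and 9.67, 9.44, 9.52 and 9.74 in MSC. The groups overlapped apart from MSC replicate 4, with a difference of 0.18 (SE 0.13, limma p = 0.181, exact p = 0.214) that was 0.05 on slide 1, 0.36 on slide 2 and 0.097 without NP replicate 4. Ccnb2 differed by 0.08.

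The replication and mitosis genes outside the family were read from lists. Of 28 tested genes of origin licensing and the replication fork, 17 were higher and 11 lower in sign, 2 were higher and 0 lower at an unadjusted limma p under 0.05, and the median was 0.04. These 2 are 7.1% of the list, and 11.7% of all genes were past that limit, 6.57% higher and 5.1% lower. The median was 0.0095 without MSC replicate 1, 0.027 without NP replicate 2, 0.069 without NP replicate 3 and 0.071 without MSC replicate 2. It was 0.14 with the background-subtracted signal scaled to the 75th percentile, where 38 genes were tested and 28 were higher, and the median of the mitosis list described next was then 0.18 over 44 genes. Rpa1, which coats single-stranded DNA, was at 9.68, 9.74, 9.57, 9.61 and 9.80 in NP and at 9.92, 10.01, 9.90 and 10.11 in MSC. Every MSC array was above every NP array, with a difference of 0.31 (SE 0.08, limma adjusted p = 0.333). Lig1, which joins the pieces of the lagging strand, was higher by 0.20 (limma adjusted p = 0.387). The genes with the smallest p on the lower side were Tk1 and Pold2, at -0.22 and -0.15, and neither passed the unadjusted limit. Of 28 tested mitosis genes, 20 were higher and 8 lower in sign, with a median of 0.08 that was 0.041 without NP replicate 4 and 0.13 without NP replicate 5, and 10.7% passed the unadjusted limit. Kif23, a motor of the midbody, was higher by 0.24 and was the only one of them higher at the unadjusted limit (limma adjusted p = 0.420), and Ndc80, a kinetochore gene, differed by 0.23. No gene of this list was higher at that limit with slide as a block, quantile normalization, median scaling or array weights. The same held without NP replicate 1, 2 or 4. Cdc25b and Cdc25a, phosphatases that switch cyclin-dependent kinases on, were lower by 0.72 and 0.20 and both passed the unadjusted limit (limma adjusted p = 0.373 and 0.427). No gene of the list was lower at that limit within slide 1, and only 1 was with quantile normalization or without NP replicate 1 or 3. Cdc25b was spread widely, from 10.01 to 10.96 in NP and from 9.09 to 10.21 in MSC.

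Of the 7 tested genes of the passage from G1 to S phase, 2 were higher and 5 lower in sign, with a median of -0.04 whose sign held in 24 of 28 alternatives. Ccnd1 (cyclin D1), which answers to growth signals, read 13.12, 14.08, 13.79, 13.96 and 14.15 in NP and 13.77, 13.88, 13.91 and 13.58 in MSC. NP replicate 1 was far below the rest, and every MSC array lay within the NP range. The difference was -0.04 (SE 0.19, limma p = 0.855, exact p = 0.913), with 0.16 on slide 1 and -0.31 on slide 2. Cdk4, a partner of the D cyclins, read 12.41, 11.98, 12.49, 12.88 and 12.81 in NP and 12.80, 12.60, 12.92 and 12.56 in MSC. NP replicate 2 was lowest, and MSC replicate 3 alone passed the NP range. The difference was 0.21 (SE 0.18, limma p = 0.268, exact p = 0.365), with 0.41 on slide 1 and -0.11 on slide 2, and was 0.073 without NP replicate 2. Ccne1, Cdk2, Cdk6, Ccnd2 and Ccnd3 differed by -0.40, -0.06, -0.01, 0.05 and -0.05. Ccne1 (cyclin E1) ranged from 8.89 to 10.39 in NP and from 9.25 to 9.61 in MSC. NP replicate 4 was the lowest NP array. The difference was -0.67 on slide 1 and 0.06 on slide 2, and Ccne1 was lower at the unadjusted limit within slide 1 and without NP replicate 4.

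The E2F and RB genes stand upstream of this step. All 11 tested genes of that list were lower in MSC in sign, with a median of -0.08, and 51.5% of all genes were lower in sign. E2f3, an activating E2F, alone passed the unadjusted limit (limma adjusted p = 0.390). It read 9.83, 11.13, 10.48, 10.10 and 9.97 in NP and 9.56, 9.91, 9.45 and 9.77 in MSC, and its difference of -0.63 (SE 0.24) included the high value on NP replicate 2. No gene of the list passed the unadjusted limit with arrays scaled to the 75th percentile, within slide 1 or without NP replicate 3. Tfdp2, a partner of E2F proteins, differed by -0.18 (limma adjusted p = 0.442). The median kept its sign under all 28 alternatives, but the count did not hold. Within slide 2, 5 were higher and 6 lower with a median of -0.025, and within slide 1, 1 was higher and 10 lower with a median of -0.16. With array weights, without NP replicate 1 and without MSC replicate 2, 2 of the 11 were higher each time. The median without NP replicates 1 and 4 and MSC replicate 1 in turn was -0.12, -0.13 and -0.13. With the background-subtracted signal scaled to the 75th percentile, 14 genes were tested and 3 were higher.

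Cdk19 was the member with the smallest p. It is a kinase of the Mediator complex, which links transcription factors to RNA polymerase II. Its promoter and that of Cdkn2d, the other member without overlap, are given as above for comparison with the replication genes.
Cdk19 (chr20:45324761-45324910, plus strand): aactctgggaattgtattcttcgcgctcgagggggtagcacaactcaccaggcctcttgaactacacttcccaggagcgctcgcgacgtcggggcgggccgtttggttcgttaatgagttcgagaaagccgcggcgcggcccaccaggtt
Cdkn2d (chr8:28110810-28110959, minus strand): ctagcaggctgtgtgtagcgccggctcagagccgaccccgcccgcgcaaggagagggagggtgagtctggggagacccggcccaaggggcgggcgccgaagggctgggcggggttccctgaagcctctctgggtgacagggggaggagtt
These windows held none of the E2F, CHR and CCAAT letters. Over 13 promoters of 9 transcriptional and other kinases, 0% held an E2F motif, 15.4% a CHR and 46.2% a CCAAT box, beside 1.7%, 19.7% and 37.5% of all promoters.

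Cdk19 read 11.62, 12.04, 11.55, 11.59 and 11.43 in NP and 11.20, 11.18, 11.14 and 11.30 in MSC. All MSC arrays lay below the lowest NP array. The difference was -0.44 (SE 0.12), which is 1.36-fold lower (unadjusted limma p = 0.0041, adjusted p = 0.333, exact p = 0.016). It was -0.55 on slide 1 and -0.29 on slide 2. The probe lies on chromosome 20 from 44669381 to 44669440 (plus strand). A second probe (44667442 to 44667501) read 8.77 to 9.14 in NP and 8.56 to 8.71 in MSC, again without overlap, with a difference of -0.24 that passed the unadjusted limit in the fit over all probes. All its MSC values lay under the filter limits of 8.75 to 8.87. It was kept mainly through NP arrays, where it was higher, so that its lack of overlap and its p are not separate evidence. With arrays scaled to the 75th percentile the difference of the gene was -0.21 and did not pass that limit.

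Cdk12 phosphorylates RNA polymerase II during elongation and is known for keeping long DNA repair genes expressed. Its kept probe read 8.41, 10.34, 9.75, 9.34 and 9.21 in NP and 8.55, 8.93, 8.42 and 8.71 in MSC. NP replicate 1 was the lowest of all 9 arrays and the other NP arrays were above every MSC array. Filter limits ran from 8.75 to 8.87, and NP replicate 1 and MSC replicates 1, 3 and 4 lay under them. The probe was thus kept mainly through the other NP arrays, where it was high, which limits what its difference and p can show. The difference was -0.76 (SE 0.32), or 1.69-fold lower (unadjusted limma p = 0.039, adjusted p = 0.408, exact p = 0.087). With slide as a block it was -0.74 and did not pass the unadjusted limit, which it passed in 3 of the 9 fits that left out 1 array, with -0.53 without NP replicate 2. The kept probe lies on chromosome 10 from 87022440 to 87022499 (plus strand). The other probe of the gene, at 87027273 to 87027332 with 10 spots, read 8.73 to 8.88 in NP and 8.59 to 8.86 in MSC, a difference of -0.05 (SE 0.08). These values also lay close to the filter limit. The mean of both probes differed by -0.40. The difference of the gene was -1.28 with the background-subtracted signal scaled to the 75th percentile, without passing the unadjusted limit. The close relative Cdk13 read 10.52 to 11.85 in NP and 10.90 to 11.08 in MSC, a difference of -0.34 (SE 0.23, limma p = 0.166, exact p = 0.222). It was lower at the unadjusted limit without NP replicate 1, without both NP replicates 1 and 2, with array weights and with arrays scaled to their median.

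Cdk16, a kinase of membrane traffic and differentiation, also gave different readings by probe. The kept probe (chromosome X, 12910138 to 12910197, minus strand) read 13.07, 13.55, 13.18, 13.26 and 13.23 in NP and 13.03, 12.94, 12.99 and 13.11 in MSC. Only MSC replicate 4 reached into the NP range. The difference was -0.24 (SE 0.10), or 1.18-fold lower (unadjusted limma p = 0.040, adjusted p = 0.409, exact p = 0.032). The other probe (12913051 to 12913110) read 10.52, 10.47, 10.66, 10.58 and 10.43 in NP and 10.57, 10.59, 10.45 and 10.66 in MSC, a difference of 0.03 (SE 0.08), and the mean of both probes differed by -0.10. The gene passed the unadjusted limit in 3 of the 9 fits that left out 1 array, and was at -0.17 without NP replicate 2.

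The remaining kinases of this group did not pass the unadjusted limit, except under alternatives. Cdk7 and Cdk17 were lower at that limit without NP replicate 1, Cdk17 also within slide 2 and with array weights, and Cdk20 without MSC replicate 2 and without the filter. Cdk7, the kinase that activates others of the family and opens transcription, Cdk10, Cdk14, Cdk17 and Cdk20 differed by -0.17, -0.13, -0.18, -0.23 and -0.18. Cdk5, which works mainly in neurons, Cdk9, the elongation kinase, and Cdk18 differed by 0.12, 0.14 and 0.07. The partners of these kinases were on a list of other cyclins and regulators, of which 18 were tested, 7 higher and 11 lower in sign, with a median of -0.04 whose sign held in 26 of 28 alternatives. Ccnh (cyclin H), the partner of Cdk7, read 11.42, 11.91, 12.08, 12.19 and 12.17 in NP and 12.38, 12.38, 12.39 and 12.38 in MSC. Every MSC array was above every NP array, by 0.43 on average (SE 0.15, limma adjusted p = 0.348). Cdh1, at 0.46 (SE 0.19, limma adjusted p = 0.395), is under this symbol the gene of E-cadherin, an adhesion protein of epithelia, and not of the cyclin destruction factor that shares its name. On the lower side, Cdk2ap1 and Cdk2ap2, which bind Cdk2, differed by -0.23 and -0.15 without passing the limit.

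**Figure D4:**
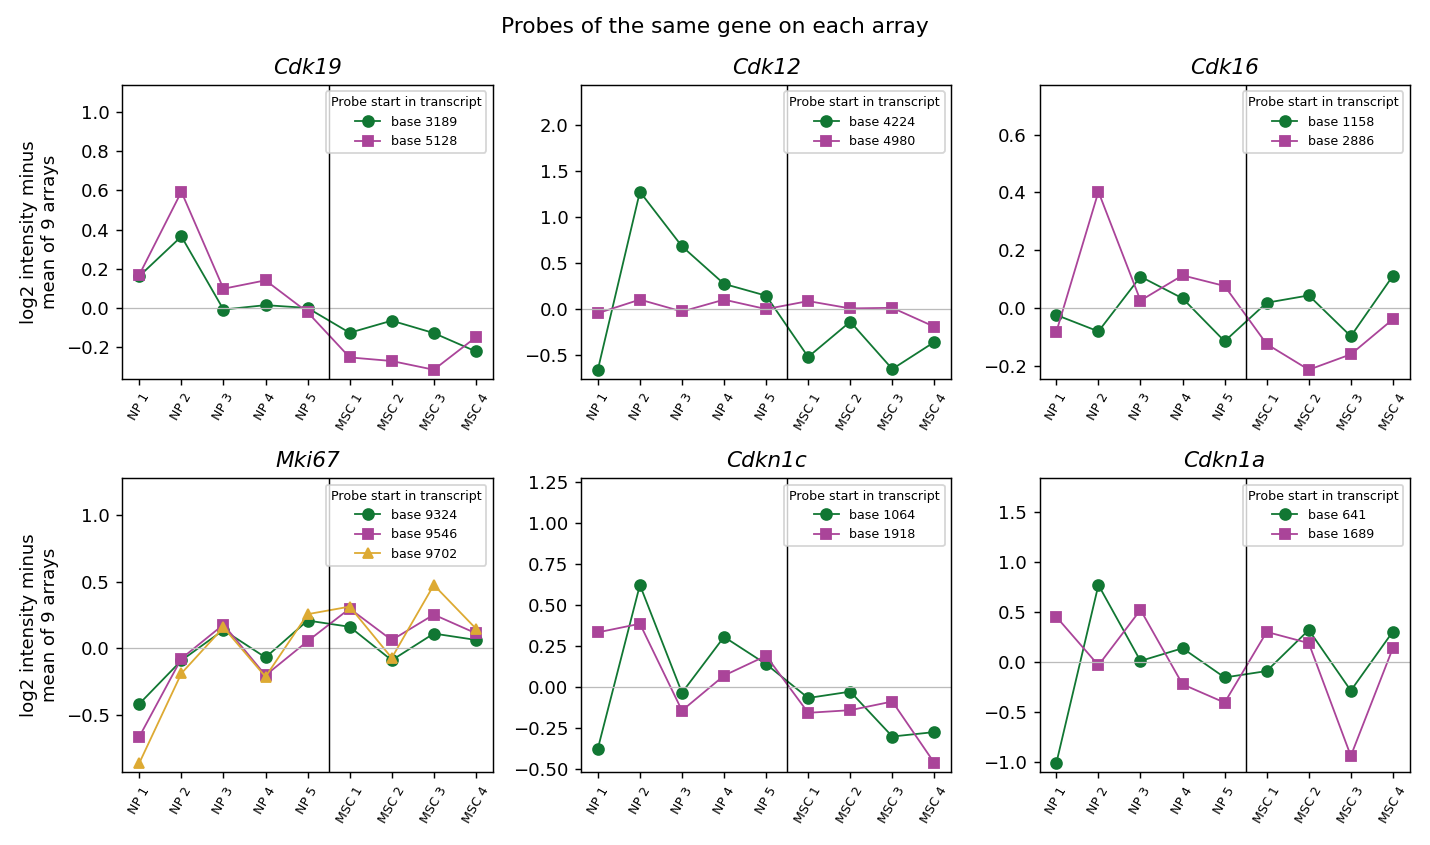
Probes of 6 members on each array, as log2 intensity minus the probe's mean over the 9 arrays, with the vertical line between NP and MSC arrays. The legend gives the first base of the probe in its transcript. Probes of Cdk19 and Mki67 follow each other, the Cdk12 probe at base 4980 stays nearly flat while that at base 4224 ranges widely, and the Cdkn1a probes go apart on NP replicates 1 and 2.

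Among the inhibitors, Cdkn2d (p19INK4d), which blocks Cdk4 and Cdk6, had the least spread. It read 9.99, 9.98, 10.03, 10.05 and 9.94 in NP and 9.78, 9.80, 9.86 and 9.86 in MSC. All MSC arrays lay below all NP arrays. The difference was -0.17 (SE 0.07), or 1.13-fold lower (unadjusted limma p = 0.025, adjusted p = 0.382), and the exact p of 0.0079 is the smallest this design allows. It was -0.21 on slide 1 and -0.14 on slide 2. It did not pass the unadjusted limit in 10 of 28 alternatives, which were quantile normalization (-0.16), scaling to the 75th percentile (-0.13) or to the median (-0.17), the background-subtracted signal scaled to the 75th percentile, either slide alone, the replicate block and the fits without NP replicate 4 or MSC replicate 1 or 2. The gene was read by a single probe with a single spot, for which no position is given here. Cdkn2c differed by -0.04, and Cdkn2a and Cdkn2b were too dim to be tested.

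Cdkn1a (p21), the Cip/Kip inhibitor that p53 raises after damage, varied most among the inhibitors. On the kept probe (chromosome 20, 7385536 to 7385595, plus strand) it read 14.18, 15.96, 15.20, 15.32 and 15.03 in NP and 15.10, 15.51, 14.90 and 15.49 in MSC. NP replicates 1 and 2 marked both ends and all MSC arrays lay between them. The difference was 0.11 (SE 0.30, limma p = 0.719, exact p = 0.746), with a 95% interval from -0.56 to 0.78. The second probe (7386596 to 7386655) read 15.43, 14.94, 15.50, 14.75 and 14.57 in NP and 15.28, 15.16, 14.04 and 15.12 in MSC. On that probe NP replicate 1 was above NP replicate 2, and the difference was -0.14 (SE 0.28). The direction of Cdkn1a also turned with arrays scaled to the 75th percentile (-0.17) or to the median (-0.21).

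Cdkn1c (p57), a Cip/Kip inhibitor found in podocytes, is given because its second probe was seen to differ. The kept probe read 11.92, 12.92, 12.26, 12.60 and 12.43 in NP and 12.23, 12.27, 11.99 and 12.02 in MSC, a difference of -0.30 (SE 0.18, limma p = 0.123, exact p = 0.190). It was -0.18 without NP replicate 2 and -0.43 without NP replicate 1, and passed the unadjusted limit in 7 of 28 alternatives, which included the fit without NP replicate 1, slide 2 alone (-0.51, beside -0.12 on slide 1) and 75th percentile scaling (-0.40). The second probe (chromosome 1, 203835291 to 203835350, minus strand) read 13.59 to 14.12 in NP and 13.27 to 13.65 in MSC, a difference of -0.38 (SE 0.13) that passed the unadjusted limit in the fit over all probes. Cdkn1b (p27) differed by -0.06.

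Ccng1 (cyclin G1), a p53 target that binds a phosphatase and drives no known phase of the cycle, read 12.94, 13.43, 13.42, 13.22 and 13.21 in NP and 13.11, 13.26, 13.06 and 12.82 in MSC. The groups overlapped, and MSC replicate 4 alone was below the NP range. The difference was -0.18 (SE 0.12, limma p = 0.173, exact p = 0.206), and Ccng2 differed by -0.23. Ccng1 was at -0.10 without MSC replicate 4 and at -0.26 without NP replicate 1, where it passed the unadjusted limit, and at -0.08 on slide 1 and -0.28 on slide 2. Of 21 tested p53 genes and targets, 13 were higher and 8 lower in sign, with a median of 0.07, and 1 in each direction passed the unadjusted limit (9.5%, beside 11.7% of all genes). The median was 0.0029 without NP replicate 3 (11 higher and 10 lower), 0.0073 within slide 2 and 0.11 within slide 1, and it was 0.13 without MSC replicate 1, 0.015 without MSC replicate 2 and 0.029 without MSC replicate 4. Gadd45g, a growth arrest gene, was higher by 0.61 (SE 0.20, limma adjusted p = 0.333), and Bax, a cell death gene, differed by 0.22. Ddit4, an inhibitor of mTOR signalling, was lower by 0.65 (SE 0.20, limma adjusted p = 0.333), with -1.21 on slide 1 and -0.02 on slide 2. Mcm3ap, Cdkn2aip and Cdkn2aipnl, the tested genes of other function, differed by -0.06, -0.13 and -0.13.

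The spread among the NP kidneys was often larger than the difference between groups. NP replicate 2 exceeded NP replicate 1 by 1.94 for Cdk12, 1.78 for Cdkn1a, 1.33 for Cdk13, 1.26 for Ccng2 and 1.09 for Cdk14. NP replicate 1 was the lowest and NP replicate 2 the highest NP array for 12 of 46 members (26.1%), beside 21.3% of all genes. Among the 12 transcriptional and other kinases this held for 7 (58.3%). NP replicate 2 was below NP replicate 1 for 25 of the 46 members (54.3%, beside 44.7% of all genes), with the largest gaps at -0.64 for Aurka, -0.63 for Mcm3ap, -0.60 for Mcm3 and -0.48 for Cdkn2c. Without both of these arrays, a setting chosen after seeing the data, 0 members were higher and 6 lower at an unadjusted limma p under 0.05 (Cdk12, Cdk13, Cdk16, Cdk19, Cdkn1c and Cdkn2d), beside 6.35% and 7.47% of all genes.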

How the data were processed

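Renal tissue of 5 NP and 4 MSC rats was hybridised to Agilent SurePrint G3 rat arrays of 1 colour (Cy3). The raw intensity values were made by the authors with Agilent Feature Extraction 10.7.3.1 and deposited per spot. The deposited table holds log2 values that the authors normalized between arrays with cyclic loess in limma. No column of sample values was left unused (0). Here the mean pixel intensity was log2 transformed without background subtraction and normalized by cyclic loess. Probes had to exceed, on at least 4 arrays, 1.1 times the 95% quantile of the negative controls on the log2 scale, flagged spots were left out and spots of a probe averaged. The probe of largest variance stood for its gene. The fits were made in limma 3.58.1 under R 4.3.3, and files were read with its package data.table, version 1.17.8. Only the limma fit was tested on simulated data, with independent values drawn for genes already normalized and filtered. Normalization, the filter and the choice of probe were not tested in this way. A p-value sets the difference between groups against the spread between these kidneys, and the number of arrays limits the precision.

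The members, lists and tests were chosen with earlier results of these data known. Genes given on every array were those with an unadjusted p under 0.05 or without overlap, with Mki67, Top2a, Pcna, Ccnd1, Cdkn1a, Ccng1, Cdk1, Ccnb1, Ccna2, Mcm2 and Cdk4 in any case. Mcm4, Mcm6 and Cdkn1c were added after their values were seen, and so were the arrays given for Rpa1, Ccnh and E2f3. Of each pathway list the genes with the 2 smallest p in each direction were named. Of 73 member probes, 67 had a current RefSeq symbol, and 0 of these differed. Replicate numbers were not taken to pair the samples. The correlation of the deviations was 0.20, 0.32, -0.35 and 0.05 for numbers 1 to 4. Only number 3 lay across slides, so that pairing and slide cannot be told apart. The alternatives took other intensities, normalizations, filters, probes, variance models and blocks, each slide alone, the deposited log2 values, and left out each array in turn.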

Additional observations from a re-analysis of the deposited data

Results flagged for a closer look

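For each of the 46 members, the array at the end of each group was set against its neighbours by Dixon's ratio, the gap to the nearest array over the range of the group. Of 92 groups, 3 were past the 95% limit, where chance alone gives about 4.6. All were Mcm genes. Mcm2 in NP had a ratio of 0.743, with NP replicate 2 at 10.32 and the next array at 10.61. Mcm3 in MSC had a ratio of 0.88, with MSC replicate 2 at 10.46 and the next at 10.98. Mcm4 in MSC had a ratio of 0.875, with MSC replicate 4 at 11.91 and the next at 10.68.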

How the results depend on the processing

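The count of members higher at an unadjusted p under 0.05 (2 as reported) was 0 when arrays were scaled to the 75th percentile, 1 after quantile normalization, 4 with the processed signal scaled to the 75th percentile (2 choices changed together), 0 within slide 1 and 0 without both NP replicates 1 and 2, and ranged from 0 (without MSC replicate 3) to 4 (without NP replicate 5 or MSC replicate 2) when single arrays were left out, with 1 without NP replicate 2 or 4 or MSC replicate 1 or 4. The count lower (4) was 2 with 75th percentile scaling, 2 with that signal and scaling, 8 with array weights and 2 within slide 1, and ranged from 1 (without MSC replicate 1) to 9 (without NP replicate 1), with 2 without NP replicate 2 or 4 or MSC replicate 3. With the replicate number as a block 4 members were higher (Bub1, Mcm6, Mki67 and Top2a) and 2 lower (Cdk12 and Cdk19), though the numbers are not known to pair the samples. The count of all genes called (0) was 2 with array weights, 4 within slide 2 and 1 without both NP replicates 1 and 2, and stayed at 0 when single arrays were left out. The median of the members ran from -0.05 to 0.01 over the alternatives. Of 532 differences recomputed for 19 members, 20 changed sign and 0 came to pass the FDR. Cdkn1a was -0.21 and -0.17 when arrays were scaled to their median and to their 75th percentile, -0.24 with the processed signal so scaled, -0.014 with the mean of its probes, and -0.13 to 0.32 with single arrays left out. Cdk4 was -0.0024 with array weights, -0.11 within slide 2 and -0.0049 without both NP arrays. Ccnb1 was -0.0083 within slide 1, -0.10 without both NP arrays and -0.062 to 0.19 with single arrays left out. Ccnd1 was 0.16 within slide 1, 0.047 with the replicate block and -0.21 to 0.047 with single arrays left out. Pcna was -0.023 within slide 2. The causes were not tested. Cdk19 had an unadjusted p under 0.05 in 26 of 28 alternatives, Bub1 in 24, Cdk12 and Cdkn2d in 18 each, Cdk16 in 17 and Top2a in 15. Members near the filter limit, such as Mcm6 and Cdk12, lie close to background, which bounds what their differences can show.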
